A study of Mus musculus with 9 samples.

Results

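The genes described here are 46 mouse genes that copy DNA or bring a cell from G1 into S phase, the phase in which the genome is replicated. They are listed by name for their known function, in a choice made with earlier results of these data known, and all 46 were found among the 21951 genes of the deposited count table. All 46 also had enough reads to be tested, among 11295 genes tested in all. The source is RNA sequencing of BV2 cells, a mouse microglial line that has been immortalised and is labelled wild type, grown in DMEM/F12 with fetal bovine serum. Control cells received vehicle alone (20% HP-β-CD, a cyclodextrin) for 30 min. Irradiated cells received the same vehicle for 30 min and then 10 Gy of X-rays. Triol-treated irradiated cells received the steroid 5α-androst-3β,5α,6β-triol at 10 µM for 30 min and then the same dose. Each of the 3 groups held 3 libraries. No vehicle is named for the triol-treated cells, and the treatment field of triol libraries 2 and 3 writes the last hydroxyl as 7β and 8β, so their group rests on their titles. No group received triol without radiation, and the sources used here do not give the time between radiation and RNA extraction.

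DNA replication is prepared in G1, when the origin recognition complex, CDC6 and CDT1 load the ring-shaped MCM2-7 helicase onto DNA, a step called licensing. Cyclin E with its kinase, and the E2F transcription factors, then drive entry into S phase, where CDC45 and the GINS complex join the ring and DNA polymerases, the sliding clamp PCNA and its loader, and enzymes that supply nucleotides take over. Transcription of many of these genes is set by E2F factors and peaks around the G1/S boundary, and ionising radiation is known to halt cycling cells at checkpoints before and within S phase.

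The libraries held 13879062 to 18944051 counts, and each member had 95 to 8264 reads in each library, so none of them was near the detection limit. In bulk RNA a change in the share of cells in a cycle phase and a change in RNA per cell cannot be told apart. The microglial label was checked against 10 markers, among them the following: Csf1r, Spi1, Trem2 and Itgam were well expressed, Aif1, Tmem119 and P2ry12 were low (P2ry12 at 6 to 14 reads), and Sall1 was at 0 in 8 of the 9 libraries. The summed level of these markers, in CPM (reads scaled to a common library size) after TMM scaling, ranged from 1168 to 1251 without radiation, from 834 to 866 after radiation alone and from 828 to 869 after triol and radiation. It thus moved with radiation beside the changes below, and its part in them was not tested. Summed markers of astrocytes, neurons and fibroblasts were at most 2.16, 3.04 and 2.10 CPM, those of oligodendrocytes 5.16 to 7.77 CPM, and Aqp4 and Olig2 were at 0 in all libraries. The astrocyte sum was 0.326 to 0.866 CPM in control and 1.96 to 2.07 in irradiated libraries, the neuron sum 0.13 to 0.744 and 1.14 to 2.05, and the fibroblast sum 0 to 0.114 and 0.523 to 0.752. These sums, each a small part of the microglial sum, moved with radiation too, and their part in the results was not tested.

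E2F-type motifs stood in a larger share of the promoters of these genes than of all tested genes. The RefSeq promoter table (GRCm38.p6, 250 bases before to 50 after each start site) held 44 promoters for 38 of the 46 genes, all but Mcm4, Gins1, Gins2, Gins4, Prim2, Pole, Rfc2 and Ccne2. The letters TTTCCCGC, TTTGGCGC, TTTCGCGC and TTTGCCGC, searched on both strands, occurred in 15 of these 44 promoters (34.1%), against 4.04% of the promoters of all tested genes and 2.26% of all promoters in the table. The cell cycle homology element, searched as TTTGAA and TTCGAA on both strands, occurred in 15.9%, against 14.0% and 19.2%. By radiation call, 3 of 10 genes that rose (Orc1, Cdc6 and Mcm3), 1 of 2 that fell (Pola1) and 11 of 26 without a call held an E2F-type motif. These are counts of letters in a window, not of bound sites.

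The 250 bases before the start site are shown for 5 genes that differ in motif and in response, with capitals marking the searched motifs, chosen among the members whose stretch lies outside their GENCODE gene model. Mcm2 (chr6:88898781-88899030, minus strand) and Mcm10 (chr2:5012792-5013041, minus strand) rose after irradiation and hold no E2F-type motif there, and the capitals in Mcm2 are a cell cycle homology element. Pola1 (chrX:93632156-93632405, minus strand) fell and holds 1. Mcm5 (chr8:75109259-75109508, plus strand) and Mcm6 (chr1:128359706-128359955, minus strand) did not pass the test and hold 2 and 3, of which a pair overlaps in each. Each is written 5′ to 3′ on the gene's own strand.
Mcm2: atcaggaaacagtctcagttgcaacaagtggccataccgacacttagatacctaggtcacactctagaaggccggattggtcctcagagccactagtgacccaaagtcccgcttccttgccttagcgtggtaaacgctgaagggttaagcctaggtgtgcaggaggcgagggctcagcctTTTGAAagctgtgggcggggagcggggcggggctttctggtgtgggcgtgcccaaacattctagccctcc
Mcm10: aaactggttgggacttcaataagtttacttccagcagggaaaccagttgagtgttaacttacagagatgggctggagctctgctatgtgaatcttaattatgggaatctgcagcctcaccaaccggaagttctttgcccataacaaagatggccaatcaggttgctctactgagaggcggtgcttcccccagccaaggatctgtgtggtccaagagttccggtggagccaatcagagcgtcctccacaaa
Pola1: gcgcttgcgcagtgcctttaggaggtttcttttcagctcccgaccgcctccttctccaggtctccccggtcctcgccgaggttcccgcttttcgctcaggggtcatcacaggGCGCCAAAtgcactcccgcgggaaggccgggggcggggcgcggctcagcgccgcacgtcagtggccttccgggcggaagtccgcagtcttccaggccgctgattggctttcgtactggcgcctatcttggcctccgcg
Mcm5: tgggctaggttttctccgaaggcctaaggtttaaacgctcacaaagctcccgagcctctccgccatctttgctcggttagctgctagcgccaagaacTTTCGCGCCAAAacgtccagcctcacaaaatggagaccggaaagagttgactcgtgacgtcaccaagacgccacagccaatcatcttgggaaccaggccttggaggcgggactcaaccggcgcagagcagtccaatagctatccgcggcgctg
Mcm6: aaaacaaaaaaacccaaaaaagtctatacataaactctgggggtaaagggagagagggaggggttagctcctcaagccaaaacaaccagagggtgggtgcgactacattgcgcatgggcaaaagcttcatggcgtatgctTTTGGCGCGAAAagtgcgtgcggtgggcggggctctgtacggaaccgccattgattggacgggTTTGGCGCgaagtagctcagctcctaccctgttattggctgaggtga

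Irradiated cells were first compared with control cells. Differences were small over the set as a whole: 12 of the 46 rose, 4 fell and 30 did not pass the test. The 16 called genes are 34.8% of the 46, below the 44.3% called among all tested genes. In the upward direction 12 of 46 (26.1%) compare with 22.1% of all tested genes, and in the downward direction 4 of 46 (8.70%) compare with 22.2%. The irradiated and control libraries did not overlap for 20 of the 46 (15 higher, 5 lower), which is 43.5% against 50.7% of all tested genes. The median log2 fold change was 0.04 over the 46 and 0.0067 over all tested genes, and the median absolute log2 fold change was 0.079 against 0.154. The median over the 46 was 0.00072 without control library 1 and, with scaling by library totals alone, 0.078 beside 0.042 for all tested genes. For 30 of the 46 the whole 95% interval of the fold change lay within 1.2-fold either way (65.2%, against 40.2% of all tested genes). The 46 were also better expressed, with a median of 68.6 CPM against 36.9 CPM for all tested genes. Of the 46, 37 lay above that median of all tested genes. The part of expression level in the contrasts between the 46 and all tested genes was not tested. A test against a 1.2-fold change kept Mcm10, Ccne1 and Ccne2 as higher and Rfc2 as lower, 4 genes of 46 where 9.72% of all tested genes passed.

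**Figure D1:**
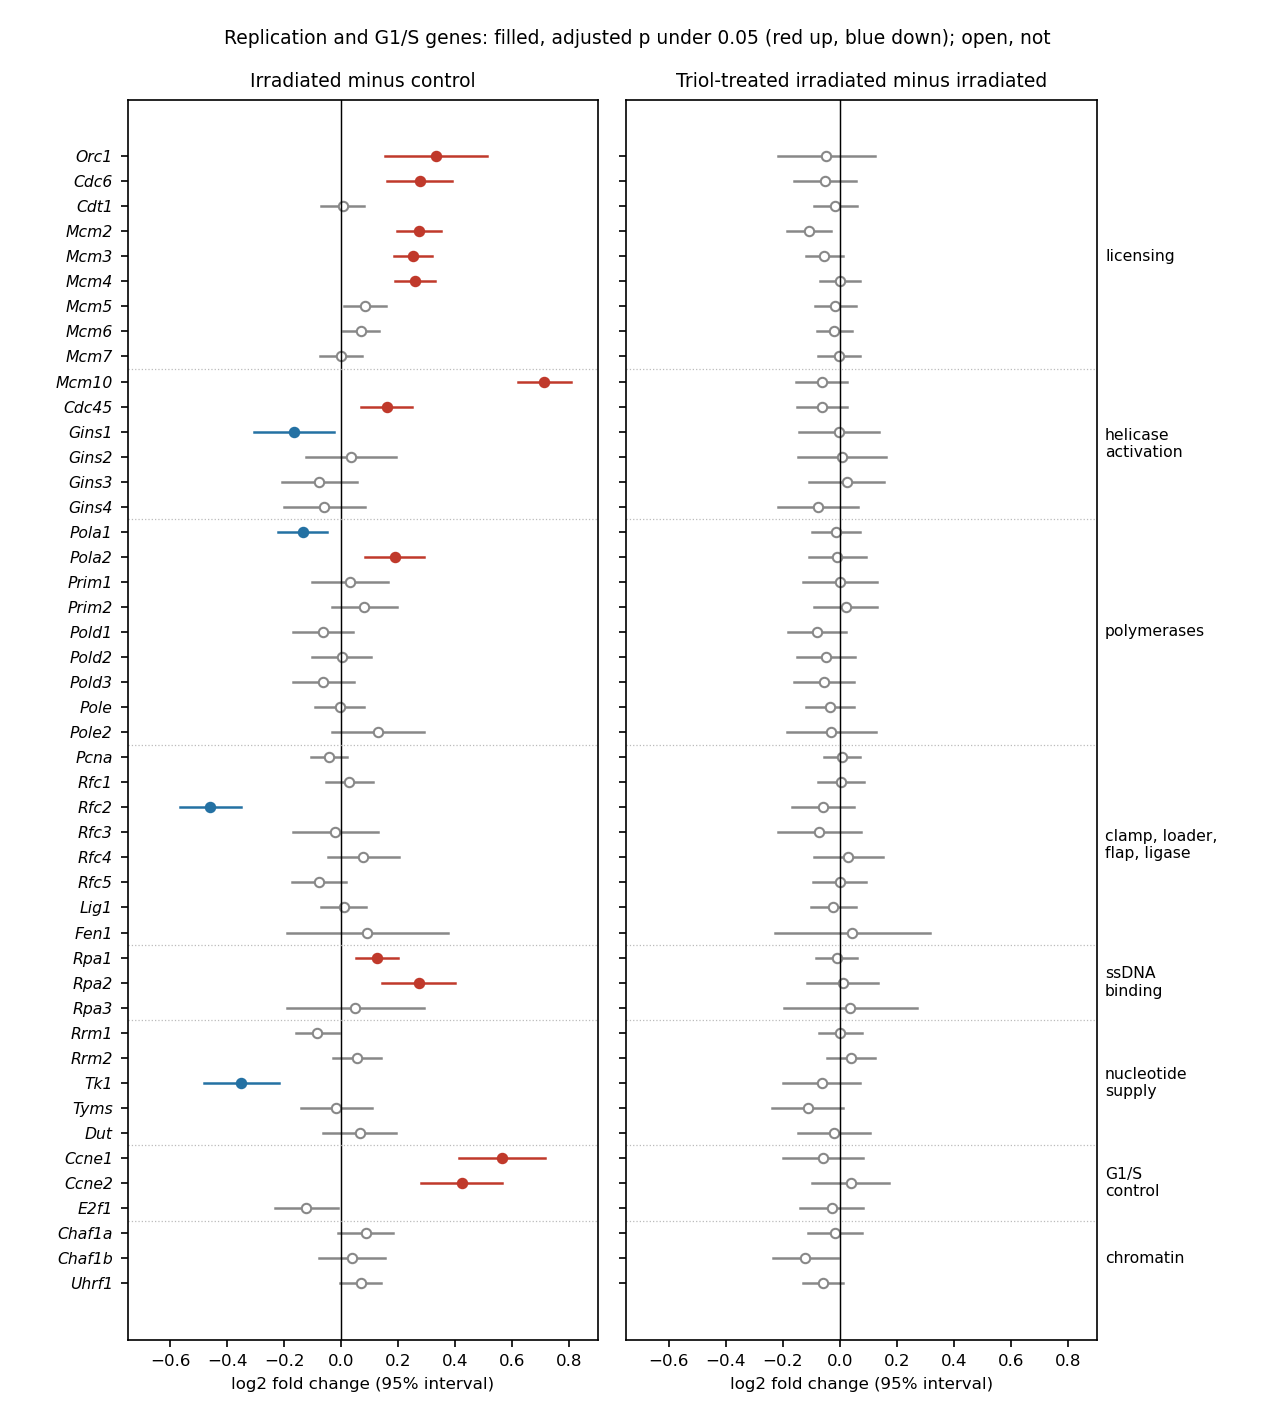
Log2 fold change (x axis) with its 95% interval for each of the 46 genes (y axis), grouped by role, for irradiated minus control cells on the left and triol-treated irradiated minus irradiated cells on the right. Red and blue points passed an adjusted p of 0.05 (edgeR): 12 red and 4 blue on the left, 0 on the right.

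**Figure D2:**
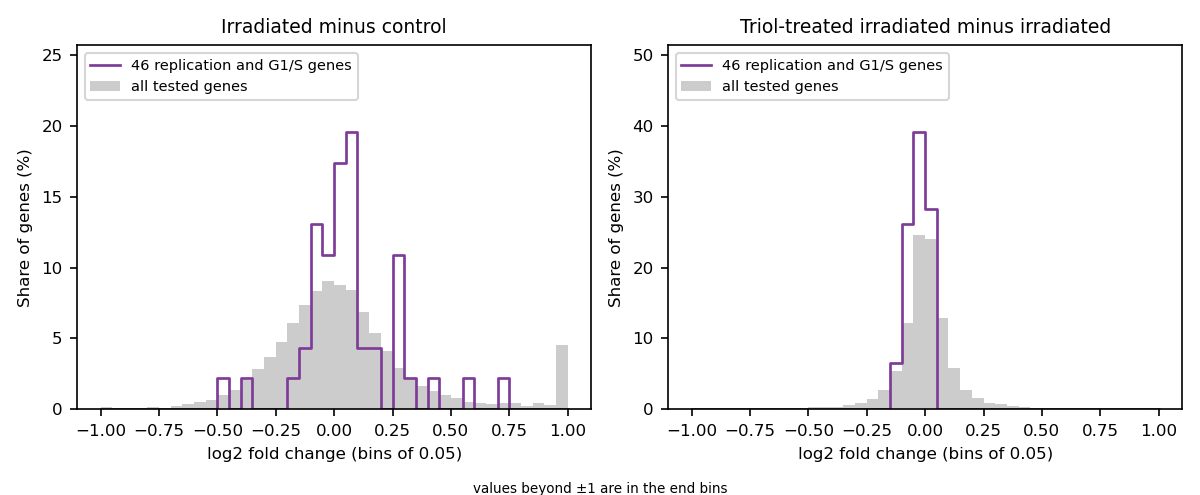
Share of genes in percent (y axis) by log2 fold change in bins of 0.05 (x axis), for the 46 replication and G1/S genes (purple line) and all 11295 tested genes (grey bars), with values beyond ±1 in the end bins. The 46 genes lie closer to 0 than all genes in the left panel, with a median absolute log2 fold change of 0.079 against 0.154. They are also better expressed (median 68.6 against 36.9 CPM), and the part of expression level was not tested.

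Of the 9 licensing genes among the members 5 rose, 0 fell and 4 did not pass the test, with a median log2 fold change of 0.25. The share that rose, 55.6%, compares with 22.1% of all tested genes. Of 8 other listed genes of the same role 2 rose (25%) and 0 fell. Orc1, the ATPase subunit of the origin recognition complex (chr4:108579423-108614833, plus strand), stood at 15.2, 14.5 and 15.6 CPM in the control libraries, at 20.98, 18.6 and 17.4 in the irradiated libraries and at 18.7, 17.9 and 18.6 with triol and radiation. Every irradiated library lay above every control library. Its log2 fold change after irradiation was 0.33 (SE 0.09, edgeR adjusted p = 0.0021, n = 3 against 3). Cdc6, which loads the helicase together with CDT1, stood at 45.4, 43.9 and 47.2 CPM in control, 52.3, 55.9 and 56.6 in irradiated libraries and 52.7, 53.3 and 52.9 with triol and radiation. Again the irradiated libraries were all the higher ones, with a log2 fold change of 0.27 (SE 0.06, edgeR adjusted p = 9.2e-05). Cdt1, its partner in loading, showed no such rise. It stood at 157, 162 and 152 CPM in control, 154, 163 and 155 in irradiated libraries and 155, 153 and 159 with triol and radiation, which overlap in full. The 95% interval of its log2 fold change after irradiation ran from -0.07 to 0.08.

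Transcripts of the 6 helicase subunits moved by unequal amounts. Mcm2, Mcm3 and Mcm4 rose (50%, where 22.1% of all tested genes rose), and Mcm5, Mcm6 and Mcm7 did not pass the test. For 5 of the 6, all but Mcm7, every irradiated library lay above every control. That is 83.3%, where the libraries of 50.7% of all tested genes did not overlap in either direction. Mcm2 stood at 157, 163 and 154 CPM in control, 183, 186 and 203 in irradiated libraries and 175, 175 and 181 with triol and radiation. The controls were the lowest libraries, and its log2 fold change after irradiation was 0.27 (SE 0.04, edgeR adjusted p = 1.9e-07). Mcm3 rose from 284 ± 11.5 to 338 ± 9.88 CPM (mean ± SD, n = 3), a log2 fold change of 0.25, and Mcm4 rose from 239.7 ± 12.7 to 286 ± 4.40 CPM, a log2 fold change of 0.26. Mcm6 stood at 359.8, 369.6 and 374 CPM in control, 377, 384 and 396 in irradiated libraries and 385, 381 and 375 with triol and radiation. Its irradiated libraries lay above the controls by a small margin that missed the threshold (log2 fold change 0.07, 95% interval 0.01 to 0.13, edgeR adjusted p = 0.063). Mcm5, another ring subunit, came close to the threshold as well, with a log2 fold change of 0.08 (edgeR adjusted p = 0.055). Its irradiated libraries also lay above the controls by a small margin. Mcm5 gained a call in 4 of 17 alternative analyses and Mcm6 in 2. Mcm7 had a log2 fold change of -0.00067, with a 95% interval from -0.07 to 0.07.

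Because the MCM2-7 ring takes up its subunits in equal number, the makeup of their transcripts was also described. Per kilobase of exon and as a share of the 6 genes' sum, Mcm7 made up 12.2 ± 0.49% in control, 10.9 ± 0.25% in irradiated libraries and 11.1 ± 0.18% with triol and radiation (mean ± SD, n = 3 each). Mcm6 went from 23.8 ± 0.21% to 22.3 ± 0.13% and Mcm5 from 14.2 ± 0.050% to 13.5 ± 0.33% after irradiation. Mcm3 went the other way, from 22.8 ± 0.29% to 24.3 ± 0.42%, as did Mcm4, from 20.1 ± 0.65% to 21.5 ± 0.48%. Mcm2 had the smallest share, at 6.85 ± 0.28% in control and 7.39 ± 0.29% in irradiated libraries. For all 6 genes the irradiated and control libraries did not overlap. The summed level of the 6 genes was 1417 ± 36.1 CPM in control, 1580 ± 34.7 in irradiated libraries and 1546 ± 19.4 with triol and radiation. Shares within a library show unequal change only, and no test was made on them.

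**Figure D3:**
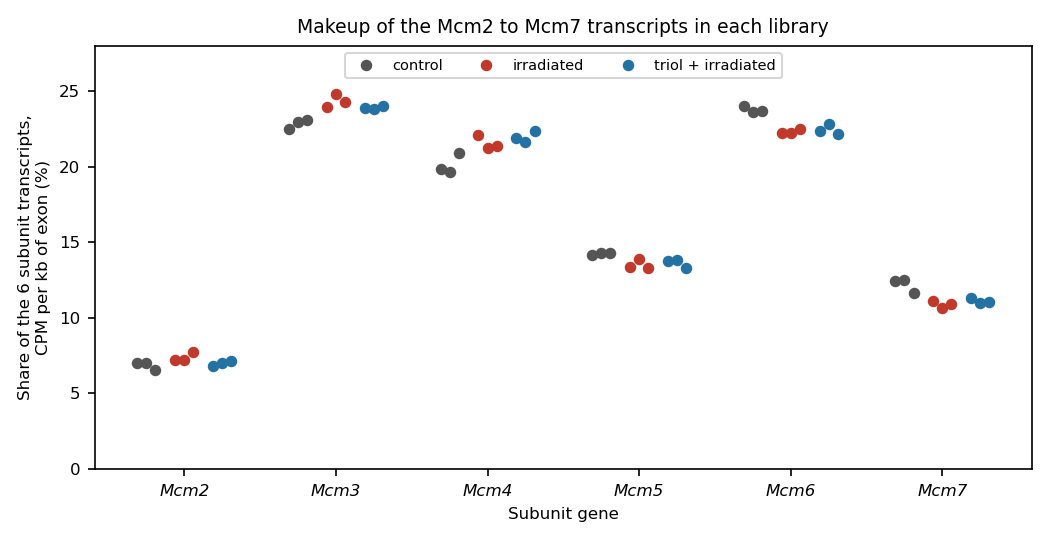
Share of each helicase subunit gene (x axis) in the summed CPM per kilobase of exon of Mcm2 to Mcm7, in percent (y axis), with 1 point per library, 3 per group. Irradiated libraries lie below the controls for Mcm5, Mcm6 and Mcm7 and above them for Mcm2, Mcm3 and Mcm4.

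Among the genes that turn the loaded ring into an active helicase, Mcm10 stood out. Mcm10 (chr2:4989714-5012791, minus strand), which helps start unwinding at origins, stood at 64.9, 66.4 and 65.8 CPM in control, 106, 114 and 104 in irradiated libraries and 107, 104 and 97.96 with triol and radiation. The control libraries were close to each other and all lay far below the other 6. The rise was 1.64-fold after irradiation, a log2 fold change of 0.71 (SE 0.05, edgeR adjusted p = 1.7e-16), whose size was at the 93.1 percentile of all tested genes. Cdc45, which joins the ring in the active helicase, stood at 88.2, 85.97 and 92.2 CPM in control, 99.0, 97.2 and 101 in irradiated libraries and 99.6, 91.6 and 93.3 with triol and radiation. Irradiated libraries lay above controls, while a triol-treated library fell into the control range. Its log2 fold change after irradiation was 0.16 (SE 0.04, edgeR adjusted p = 0.0032). The GINS genes, whose products complete the active helicase, did not follow. Gins1 fell by 0.17 on the log2 scale (edgeR adjusted p = 0.047), a call that was lost in 10 of 17 alternative analyses. Gins2, Gins3 and Gins4 had log2 fold changes of 0.03, -0.08 and -0.06 and did not pass the test. Gins2 shares 67.3% of its exonic bases with Gse1 of the other strand, which fell by 0.19 on the log2 scale, from 69.6 to 60.9 CPM, so its own value is uncertain if the counting ignored the strand.

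The member genes of the replicative polymerases were mostly flat. Of these 9 genes 1 rose, 1 fell and 7 did not pass the test, 22.2% called against 44.3% of all tested genes. Of 3 other listed genes of the same role 2 rose and 1 fell. Among the 9, the call in each direction fell on a subunit of polymerase α. With primase, this enzyme lays down the first stretch of each new strand. Its accessory subunit gene Pola2 stood at 64.1, 66.7 and 72.5 CPM in control, 76.7, 75.8 and 79.0 in irradiated libraries and 75.9, 73.2 and 80.9 with triol and radiation. All 6 irradiated libraries were above the controls, with a log2 fold change of 0.19 for irradiated against control cells (SE 0.05, edgeR adjusted p = 0.0025). Its catalytic subunit gene Pola1 fell from 110.0 ± 3.63 to 100.1 ± 2.47 CPM, a log2 fold change of -0.14 (SE 0.04, edgeR adjusted p = 0.0076), with no overlap between these groups. Pole, the catalytic subunit of the leading-strand polymerase ε, stood at 97.2, 105 and 99.4 CPM in control, 97.9, 99.7 and 103 in irradiated libraries and 95.6, 97.2 and 100.1 with triol and radiation. Those values overlap throughout, and the 95% interval of the log2 fold change after irradiation was -0.09 to 0.08. The primase genes Prim1 and Prim2, the polymerase δ genes Pold1, Pold2 and Pold3, and Pole2 had log2 fold changes from -0.06 (Pold1) to 0.13 (Pole2) and did not pass the test.

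Pcna, the sliding clamp that holds polymerases on DNA, is among the best known markers of proliferating cells and was the member with the highest level per kilobase of exon, at 193 ± 5.15 CPM per kilobase in control cells, followed by Mcm6 at 78.8 ± 1.53. It did not pass the test. Pcna stood at 458, 453 and 476 CPM in control, 458, 439 and 448 in irradiated libraries and 463, 457 and 434 with triol and radiation. The groups overlap, and its log2 fold change after irradiation was -0.04, with a 95% interval from -0.11 to 0.02. GENCODE lists 2 pseudogenes named after Pcna, so its count is uncertain where reads match both. Lig1, the ligase that seals Okazaki fragments, stood at 159.7, 168 and 172 CPM in control, 159, 169.6 and 173 in irradiated libraries and 172, 158 and 165 with triol and radiation. Its 95% interval after irradiation was -0.07 to 0.09 on the log2 scale.

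The clamp loader, replication factor C, has 5 subunits, and 1 subunit gene passed the test (20%, against 44.3% of all tested genes). Rfc2 (chr5:134581366-134601805, plus strand) stood at 80.7, 93.5 and 91.8 CPM in control, 61.0, 65.1 and 67.6 in irradiated libraries and 63.4, 63.2 and 59.5 with triol and radiation. All irradiated libraries lay below every control, and the gene fell by 0.46 on the log2 scale (SE 0.05, edgeR adjusted p = 1.6e-09), to 0.727 of its control level. Rfc1, Rfc3, Rfc4 and Rfc5 had log2 fold changes of 0.03, -0.02, 0.08 and -0.08 and did not pass the test. Per kilobase, Rfc2 made up 15.1 ± 0.83% of the 5 Rfc genes' sum in control, 11.4 ± 0.32% in irradiated libraries and 10.9 ± 0.33% with triol and radiation. A caveat belongs to its position: 15.1% of its exonic bases overlap Lat2 on the other strand, which fell by 0.52 on the log2 scale, from 111 to 77.3 CPM. Eif4a2 overlaps 12.7% of the exonic bases of Rfc4 on the other strand, and Wsb2 overlaps 10.7% of those of Rfc5. Eif4a2 and Wsb2 had log2 fold changes of 0.22 and -0.33. The sources used here do not give the strand setting of the counting, so reads in these overlaps cannot be told apart. The part of Lat2 in the fall of Rfc2, and of Eif4a2 and Wsb2 in the values of Rfc4 and Rfc5, was not tested. Fen1, the flap endonuclease of Okazaki fragments, had the widest interval of the 46 (log2 fold change 0.09, from -0.19 to 0.37), and 84.2% of its exonic bases overlap genes of the other strand.

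Replication protein A, which coats exposed single-stranded DNA, has 3 subunits. The genes of the 2 larger subunits rose (66.7%, where 22.1% of all tested genes rose). Rpa1 stood at 200.3, 219.6 and 208 CPM in control, 220.1, 234 and 231 in irradiated libraries and 233, 225 and 222 with triol and radiation. The lowest irradiated library was only just above the highest control, and the log2 fold change of 0.13 (SE 0.04, edgeR adjusted p = 0.0046) was no longer called without control library 1 (adjusted p = 0.064). Rpa2, whose protein is phosphorylated under replication stress, stood at 41.1, 41.2 and 46.4 CPM in control, 49.3, 48.4 and 57.3 in irradiated libraries and 52.8, 52.9 and 50.5 with triol and radiation. No irradiated library reached down into the control range, and its log2 fold change was 0.27 (SE 0.06, edgeR adjusted p = 0.00054). Rpa3 did not pass the test, with a log2 fold change of 0.05 and a wide interval from -0.19 to 0.29.

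Of 5 members that supply nucleotides 0 rose, 1 fell and 4 did not pass the test, where 22.1% of all tested genes rose and 22.2% fell. Of 8 other listed genes of the same role 5 rose and 1 fell. Tk1, thymidine kinase, which salvages thymidine and is a classic S-phase gene (chr11:117815526-117826092, minus strand), stood at 43.9, 49.5 and 52.8 CPM in control, 38.8, 39.1 and 36.9 in irradiated libraries and 35.6, 38.8 and 35.4 with triol and radiation. The control libraries were spread more than the others but all lay above them. The gene fell by 0.35 on the log2 scale (SE 0.07, edgeR adjusted p = 2.3e-05). Rrm2, the S-phase subunit of ribonucleotide reductase, stood at 99.9, 99.9 and 103 CPM in control, 107, 101 and 107 in irradiated libraries and 110.4, 106 and 107 with triol and radiation. Control and irradiated values overlap, and its log2 fold change of 0.06 did not pass the test (95% interval -0.03 to 0.14). Rrm1, its partner subunit, had a log2 fold change of -0.08 (edgeR adjusted p = 0.065). Tyms, thymidylate synthase, which makes thymidylate anew, stood at 41.7, 42.7 and 44.1 CPM in control, 39.6, 45.9 and 41.5 in irradiated libraries and 39.0, 39.4 and 39.1 with triol and radiation. Irradiated libraries spanned the control range, with an interval from -0.14 to 0.11 on the log2 scale. GENCODE lists 1 pseudogene named after Tyms, so the count of Tyms is uncertain where reads match both. Dut, which removes dUTP, had a log2 fold change of 0.07 and did not pass the test.

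Both cyclin E genes rose, and E2f1 did not (66.7% of these 3 genes rose, against 22.1% of all tested genes). Ccne1 (chr7:38097984-38107534, minus strand), the regulatory subunit of the kinase that triggers S-phase entry, stood at 22.7, 23.0 and 22.9 CPM in control, 34.0, 35.3 and 31.9 in irradiated libraries and 35.0, 29.1 and 32.9 with triol and radiation. The controls were tightly grouped and every irradiated library was far above them. The rise was 1.48-fold, a log2 fold change of 0.56 (SE 0.07, edgeR adjusted p = 4.2e-08), at the 91.0 percentile of absolute change among all tested genes. Ccne2, its close relative (chr4:11191351-11204779, plus strand), stood at 30.6, 30.1 and 32.9 CPM in control, 45.2, 36.1 and 43.8 in irradiated libraries and 44.8, 41.7 and 42.1 with triol and radiation. Irradiated library 2 was the nearest to the controls but still above them, and the log2 fold change was 0.42 (SE 0.07, edgeR adjusted p = 4.8e-06). Its exons overlap Ints8 of the other strand over 17.4% of their bases, and Ints8 had a log2 fold change of -0.00072. E2f1, the transcription factor that activates many genes of the set, stood at 67.5, 72.6 and 77.1 CPM in control, 64.0, 67.9 and 67.9 in irradiated libraries and 70.0, 60.1 and 65.7 with triol and radiation. Its irradiated libraries overlap only the lowest control, and the log2 fold change of -0.12 missed the threshold (95% interval -0.23 to -0.01, edgeR adjusted p = 0.066). The log2 ratio of Ccne1 to E2f1 counts, a quantity chosen after the values were seen, was -1.66 ± 0.09 in control, -0.98 ± 0.10 in irradiated libraries and -1.01 ± 0.03 with triol and radiation.

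**Figure D4:**
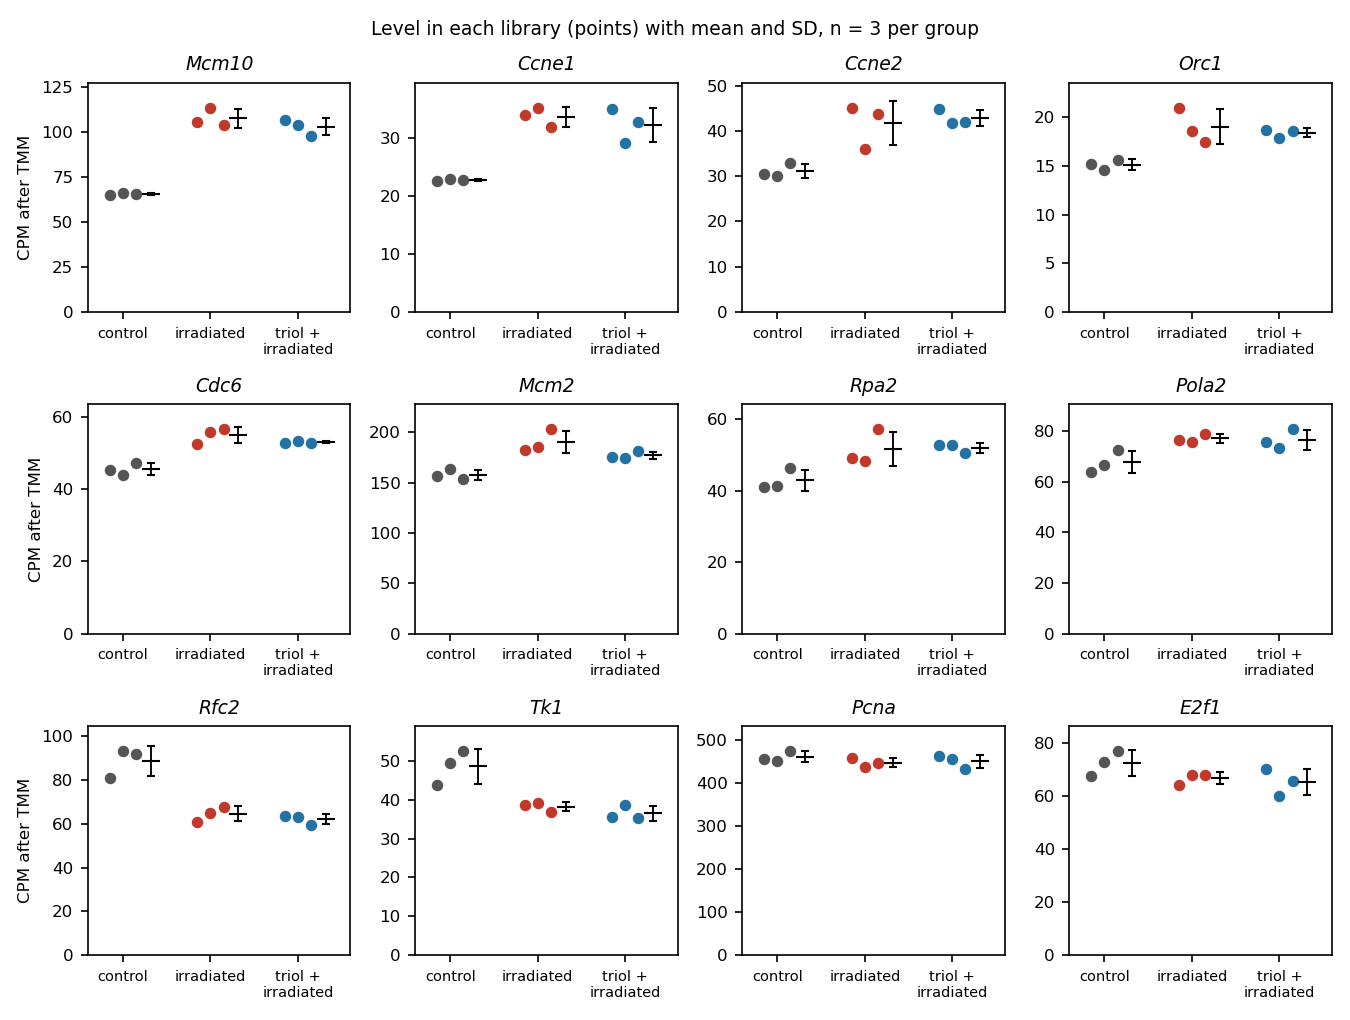
Level in CPM after TMM scaling (y axis, from 0) of 12 of the genes in each library, by group (x axis), with the mean and SD of 3 libraries beside the points. For Mcm10, Ccne1, Ccne2, Orc1, Cdc6, Mcm2, Rpa2 and Pola2 all irradiated libraries lie above the controls, for Rfc2 and Tk1 below them, and for Pcna and E2f1 they overlap.

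The 3 members listed for rebuilding chromatin behind the fork, Chaf1a, Chaf1b and Uhrf1, did not pass the test, where 44.3% of all tested genes did. Of 7 other listed genes of the same role 4 rose (57.1%, against 22.1% of all tested genes) and 0 fell. Chaf1a, the large subunit of chromatin assembly factor 1, which deposits histones on new DNA, stood at 71.1, 77.1 and 77.0 CPM in control, 81.5, 78.8 and 78.9 in irradiated libraries and 79.1, 75.6 and 81.4 with triol and radiation. Irradiated libraries were all above the controls by a narrow gap, but the log2 fold change of 0.09 was not called (edgeR adjusted p = 0.14), and 52.5% of its exonic bases overlap a gene of the other strand. Uhrf1, which recruits the maintenance DNA methyltransferase to newly copied DNA, stood at 195, 204 and 209.9 CPM in control, 218, 209 and 210.2 in irradiated libraries and 209, 198 and 205 with triol and radiation. Its groups overlap, with a log2 fold change of 0.07 and a 95% interval from -0.0042 to 0.14. Chaf1b, the middle subunit of the assembly factor, had a log2 fold change of 0.04.

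Other replication and G1/S genes, listed for the same roles but not members, were read beside the 46. Of 55 tested, 22 rose, 3 fell and 30 did not pass the test, with a median log2 fold change of 0.09. The called share was 45.5% against 44.3% of all tested genes, with 40.0% against 22.1% rising and 5.45% against 22.2% falling. Among those that rose were Shmt1, a folate enzyme that feeds carbon units into nucleotide synthesis, with a log2 fold change of 0.40 (edgeR adjusted p = 7.4e-09), and Nasp, a histone chaperone, with 0.38 (edgeR adjusted p = 1.5e-09). Shmt1 stood at 65.6 ± 4.12 CPM in control and 86.8 ± 2.56 CPM in irradiated libraries (mean ± SD, n = 3), and these groups did not overlap. Pold4, the small subunit of polymerase δ, fell by 0.44 on the log2 scale (edgeR adjusted p = 0.0015), and 24.6% of its exonic bases overlap another gene of the same strand. The other falls were in Cmpk1, a pyrimidine nucleotide kinase (log2 fold change -0.21), and Topbp1, a scaffold that activates the checkpoint kinase ATR (-0.11).

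Triol-treated irradiated cells were then compared with irradiated cells, to ask whether the steroid altered these genes. By edgeR 0 of the 46 genes passed the threshold, where 0.106% of all tested genes did. At an unadjusted edgeR p under 0.05 there were 2 of the 46 genes, Mcm2 and Chaf1b, beside 865 of all 11295 tested genes. DESeq2 and limma-voom also called 0 of the 46, though DESeq2 gave an adjusted p for only 16 of them. The estimate for Mcm2 was a log2 fold change of -0.11 (from -0.18 to -0.03, edgeR adjusted p = 0.40), and that for Chaf1b was -0.12 (from -0.24 to -0.01, edgeR adjusted p = 0.63). The 95% intervals, each for a single gene, reflect the spread among these libraries, which may be technical. They set no bound across cultures. For 44 of the 46 genes, all but Fen1 and Rpa3, the interval lay within 1.2-fold, as it did for 67.4% of all tested genes. The part of the higher expression level of the 46 in this contrast was not tested. For the 4 genes that the test against a 1.2-fold change kept after irradiation, the triol-against-irradiated log2 fold change was -0.06 for Mcm10 (95% interval -0.15 to 0.02), -0.06 for Ccne1 (-0.20 to 0.08), 0.04 for Ccne2 (-0.10 to 0.17) and -0.06 for Rfc2 (-0.17 to 0.05).

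The direction leaned downward with triol, by little. Of the 46 genes 33 had a lower estimate in triol-treated irradiated than in irradiated cells (71.7%, against 49.2% of all tested genes), and the median log2 fold change was -0.02. It was -0.0038 without irradiated library 3, -0.0046 without triol library 2 and at lowest -0.047 in the other runs that left out a library. The number of lower estimates among the 46 was 25 without irradiated library 3 and 26 without triol library 2. It was 39 without triol library 1. The libraries of these groups did not overlap for 4 genes, Mcm2, Rfc3, Tyms and Uhrf1, all lower with triol, which is 8.70% of the 46 against 13.2% of all tested genes. Tyms shows the scale of these differences, with 3 triol-treated values from 39.0 to 39.4 CPM against irradiated values from 39.6 to 45.9. The summed level of 8 hepatocyte markers moved with triol, from 0.914 to 2.67 CPM in irradiated to 8.45 to 9.10 CPM in triol-treated irradiated libraries, led by Alb at up to 82 reads, and the neuron sum (1.14 to 2.05 against 2.27 to 3.04 CPM) and the fibroblast sum (0.523 to 0.752 against 1.097 to 2.10 CPM) moved the same way. Their part in these small differences was not tested. Of the other replication genes 0 of 55 passed, with 4 at an unadjusted edgeR p under 0.05, beside 865 of all 11295 tested genes.

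Triol-treated irradiated cells were last compared with control cells. This comparison shares its control libraries with the first and its triol libraries with the second. Of the 46 genes 11 rose and 6 fell, 37.0% called against 43.3% of all tested genes (21.5% of which rose and 21.7% fell), and the median log2 fold change was 0.04. With scaling by library totals alone the split was 15 up and 3 down, and the median of all tested genes also moved up, from 0.0038 to 0.034. Without control library 1 the median was -0.02. The rises over control were led by Mcm10 (log2 fold change 0.65, against 0.71 for irradiated cells without triol), Ccne1 (0.50 against 0.56) and Ccne2 (0.46 against 0.42), and the falls by Rfc2 (-0.52 against -0.46) and Tk1 (-0.42 against -0.35). A test against a 1.2-fold change kept these 5 genes, where 9.21% of all tested genes passed. Cdc45 had a log2 fold change of 0.10 against control and did not pass the test (edgeR adjusted p = 0.074). E2f1 fell by 0.15 (edgeR adjusted p = 0.020) and Pold1, the catalytic subunit of polymerase δ, fell by 0.14 on the log2 scale (adjusted p = 0.018), and each call was lost in 3 of 17 alternative analyses. Neither passed the test between triol-treated irradiated and irradiated cells.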

How the data were processed

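RNA of 9 BV2 libraries, 3 per group, was sequenced after NEBNext Ultra library preparation. The deposited table holds raw read counts per gene as deposited by the authors, without normalisation. The submitters' processing notes name fastp 0.18.0, FastQC, STAR 2.7.1a and featureCounts of Subread 1.6.3, on GRCm38. The strand setting and the handling of reads matching several places are not stated in any source used here and bear on overlapping genes and on genes with pseudogenes. All 21951 identifiers and symbols matched GENCODE M21, from which coordinates (GRCm38, 1-based) and exonic lengths were taken.

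Genes were filtered with filterByExpr, leaving 11295, and edgeR 4.0.16 in R 4.3.3 gave two-sided quasi-likelihood F tests, with TMM scaling, robust dispersion and 1 fit over all 9 libraries. Benjamini-Hochberg adjustment ran over all tested genes, with 0.05 as the threshold, and adjusted p-values are from edgeR unless another tool is given. CPM values are after TMM scaling. The biological coefficient of variation was 3.18%. Replicates of each group differed by more than counting noise. Groups and replicate numbers come from the sample titles. Whether they are separate cultures is not stated, so the p-values reflect the spread among these 9 libraries, which may be technical. No batch is given in the labels.

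The members and lists were chosen with earlier results of these data known. All members are named. Values per library are given for a fixed set of 18 genes and for the called gene with the largest change in each role, and of the other listed genes the 3 largest rises and falls were chosen to be named. Some items chosen this way are not reported here. A symbol shared by 2 identifiers (Chtf8) was left out, and E2f7 was at 0 in all libraries. Alternatives were RLE, upper quartile and library-total scaling, no filter, DESeq2 1.42.0, limma-voom 3.58.1, fits of only the groups compared, a replicate block, a test against a 1.2-fold change (glmTreat) and leaving out each library in turn.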

Additional observations from a re-analysis of the deposited data

How the results depend on the processing

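The calls were stable for most genes. Over 17 alternatives besides the test against a 1.2-fold change, 14 of the 16 genes called for irradiated against control cells were called in all of them, with Gins1 and Rpa1 as the exceptions, and 6 other genes gained a call in some. For triol-treated irradiated against control cells 12 of 17 were called in all. The exceptions were E2f1, Gins1, Pola2 (lost without triol library 3), Pold1 and Rpa1, and 7 genes gained a call in some. For triol-treated against irradiated cells the 46 genes stayed without a call in all. The test against a 1.2-fold change called 4 genes for irradiated and 5 for triol-treated irradiated cells against control. Leaving out a library in turn gave 15 to 17, 0 to 0 and 15 to 19 called genes for the comparisons in the order above (irradiated against control, triol-treated against irradiated, triol-treated against control).

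The medians moved with scaling and when single libraries were left out, among them control library 1. For irradiated against control cells the median log2 fold change of the members was 0.072 with upper quartile scaling and 0.078 with library totals, while the median of all tested genes went from 0.0067 to 0.036 and 0.042, a shift of like size. It was 0.00072 to 0.070 when a library was left out. For triol-treated irradiated against control cells it was 0.067 with library totals (all tested genes 0.034) and -0.020 to 0.066 when a library was left out. The lowest value of both comparisons came without control library 1. In the latter comparison the median, 0.037 with all libraries, was also 0.0055 without control library 2 and 0.0030 without triol library 1. It was 0.066 without control library 3. The cause of these changes was not tested. Fen1 and Rpa3 were the members with the lowest CPM and the widest intervals, and the part of read depth in this was not tested.

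Same-numbered libraries did not deviate together (correlations of -0.052 to 0.044), so the numbers are not taken to pair the samples. With the replicate number as a block, 16, 0 and 18 genes were called, with medians of 0.05, -0.02 and 0.04.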
